A study of Mus musculus with 30 samples.

Results

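The 3 fibrinogen chain genes and 7 genes for plasma proteins that the yolk sac and fetal liver secrete were followed through neuronal progenitors (NPCs) made from mouse embryonic stem cells (ESCs) with and without the chromatin protein MBD3. The 10 genes are *Fga*, *Fgb*, *Fgg*, *Afp*, *Ttr*, *Apoa1*, *Apoa4*, *Apob*, *Apoe* and *Rbp4*, 10 rows by symbol of the 25400 genes in the count table. *Fga* and *Fgb* were chosen by their large rises in the counts of these data, so their values are given as a description with no test. The other 8 were tested in every comparison. All 10 passed the filter on low counts, which a gene can do through a single line in which it is high.

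RNA was sequenced from 24 NPC libraries of 8 lines, 3 libraries a line. The lines were wild type (WT), *Mbd3* KO, and *Mbd3* KO carrying a construct for MBD3a, for MBD3dMBD (MBD3a without its MBD domain), for MBD2a, for MBD2adelGR (MBD2a without its glycine-arginine repeat), for MBD2aR181C (a point mutant of the MBD domain) or for MBD2t (the isoform without the coiled coil). All lines share a 129×C57BL/6 ESC background, the 6 construct lines also share the *Mbd3* deletion and an intact *Mbd2* gene, and the constructs sat in a single defined genomic site with the CAGGS promoter. Per the study, experiments used independent lines, except that the 3 MBD2t libraries came from 1 clone and hold no difference between clones. The deposited columns name the point mutant with another residue number (MBD2aR64C), and it was taken as MBD2aR181C because no other line carries such a mutant.

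Fibrinogen is a soluble hexamer of α, β and γ chains that thrombin turns into the fibrin of a clot, and hepatocytes make more of it in the acute phase response. Before the liver takes over, the visceral endoderm of the yolk sac secretes a similar set of proteins, among them α-fetoprotein, transthyretin, retinol binding protein and the apolipoproteins that build lipid particles. Transcription factors of the HNF1, HNF4, FOXA and GATA families drive many of these genes in liver and endoderm. Fibrinogen is not a usual product of neural progenitors, while glia make apolipoprotein E and the choroid plexus makes transthyretin.

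The fibrinogen genes lie side by side on chromosome 3 (mm9), *Fgg* at 82811781-82818975 (+ strand), *Fga* at 82830075-82838036 (+ strand) and *Fgb* at 82846169-82853725 (− strand), within 41945 bp. *Apoa1* (chr9:46036663-46038549, + strand) and *Apoa4* (chr9:46048779-46051542, + strand) are neighbours as well, and *Afp* (chr5:90919740-90937933, + strand), *Apob* (chr12:7984454-8023641, + strand), *Apoe* (chr7:20281458-20284515, - strand) and *Rbp4* (chr19:38191110-38199811, - strand) lie apart, all in mm9. The start regions of these genes are shown because the 3 genes were high together in the same lines, followed by that of *Afp*, which was not called in *Mbd3* KO, and that of *Rbp4*, which was called in the same lines and has a CpG-rich start. Each runs from 250 bases before to 50 after a start site of RefSeq on GRCm38.p6, a later build than the mm9 of the counts, so no mm9 coordinate applies to it. Capitals mark a match to the HNF1 letters GTTAAT on either strand.
Fga, chr3:83025903-83026202, + strand: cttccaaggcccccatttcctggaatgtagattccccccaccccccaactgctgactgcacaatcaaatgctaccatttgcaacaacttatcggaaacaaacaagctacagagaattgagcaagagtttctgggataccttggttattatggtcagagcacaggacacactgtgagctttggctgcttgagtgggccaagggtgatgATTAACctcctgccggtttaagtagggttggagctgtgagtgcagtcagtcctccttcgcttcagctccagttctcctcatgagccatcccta
Fgb, chr3:83049814-83050113, - strand: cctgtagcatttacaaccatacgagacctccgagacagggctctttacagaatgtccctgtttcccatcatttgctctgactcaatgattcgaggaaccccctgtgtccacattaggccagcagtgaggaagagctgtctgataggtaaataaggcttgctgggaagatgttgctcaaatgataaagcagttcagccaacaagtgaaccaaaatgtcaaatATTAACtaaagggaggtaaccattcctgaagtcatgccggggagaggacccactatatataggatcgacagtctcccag
Fgg, chr3:83007474-83007773, + strand: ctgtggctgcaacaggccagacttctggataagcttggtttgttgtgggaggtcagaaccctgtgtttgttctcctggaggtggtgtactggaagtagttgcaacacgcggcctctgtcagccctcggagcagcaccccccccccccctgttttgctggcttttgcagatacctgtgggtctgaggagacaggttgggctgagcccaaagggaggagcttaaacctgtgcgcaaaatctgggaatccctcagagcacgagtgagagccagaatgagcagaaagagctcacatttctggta
Afp, chr5:90490464-90490763, + strand: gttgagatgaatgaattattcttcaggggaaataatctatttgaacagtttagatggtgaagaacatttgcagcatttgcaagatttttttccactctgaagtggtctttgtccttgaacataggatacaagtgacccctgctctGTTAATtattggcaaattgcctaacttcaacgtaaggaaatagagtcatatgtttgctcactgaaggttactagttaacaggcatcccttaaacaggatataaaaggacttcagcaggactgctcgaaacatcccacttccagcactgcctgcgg
Rbp4, chr19:38124762-38125061, - strand: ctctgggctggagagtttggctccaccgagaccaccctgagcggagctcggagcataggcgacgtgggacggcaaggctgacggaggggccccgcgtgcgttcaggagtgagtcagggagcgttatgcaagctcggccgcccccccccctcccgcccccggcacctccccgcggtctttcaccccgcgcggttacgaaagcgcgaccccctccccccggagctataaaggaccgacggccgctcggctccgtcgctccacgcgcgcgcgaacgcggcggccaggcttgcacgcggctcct

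The *Fga* and *Fgb* regions each held 1 HNF1 match, at −43 and −29 relative to the start, 1 C/EBP match (TTGCNNAA) and 1 STAT match (TTCNNNGAA). The *Fgg* region held none of the 3 and a single match to the nuclear receptor letters AGGTCA (in 16.3% of all regions), and the *Afp* region held the HNF1 letters at −105 and a C/EBP match. Of all 32807 RefSeq mouse start regions, 7.1% hold the HNF1 letters, 10.8% the C/EBP letters and 8.29% the STAT letters. Start regions of 9 of the 10 genes were found in the table, 12 in all, and 4 of the 9 genes (*Fga*, *Fgb*, *Afp*, *Apoe*) had the HNF1 letters in at least 1 of them. The FOXA letters TGTTTGC, in 5.06% of all regions, matched 2 times in that of *Apoa1* and 1 time each in those of *Apob* and *Afp*. A match is a string of letters, not a shown binding site.

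The MBD of MBD2 binds methylated CpG, so CpG content is given for each region. The fibrinogen regions held 3 (*Fga*), 5 (*Fgb*) and 5 (*Fgg*) CpG, against a median of 7 over all regions. *Afp* had 3, *Apoa1* 4, *Apoa4* 1 and *Apob* 9, and the 3 *Apoe* regions had 10, 11 and 12. The *Rbp4* region shown had 40 CpG, more than 96.1% of all regions, while its other start had 5. The genes thus include CpG-poor and CpG-rich starts, and no methylation was measured here.

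Values are in CPM, counts scaled to a common library size with the TMM correction for composition. A gene was called changed at an adjusted p-value under 0.05 with an absolute log2 fold change above 1 (edgeR quasi-likelihood test, Benjamini-Hochberg over 16582 genes). Library totals were 27993858 to 49392806 counts, and 3 counts, the limit that a count of 0 allows, are 0.0606 to 0.115 CPM. The *Mbd3* gene gave 149 to 157 CPM in WT and 34.2 to 73.8 in *Mbd3* KO. *Mbd2* gave 67.0 to 87.2 CPM in the MBD2a line against 64.2 to 70.9 in *Mbd3* KO and 280.3 to 700.1 in MBD2adelGR. It gave 253 to 325 CPM in MBD2aR181C and 335 to 356 in MBD2t. The NPC counts thus show little added *Mbd2* RNA in the MBD2a line. By Western blot of ESC lines, the study reported similar protein levels for the MBD2a and MBD2adelGR constructs. RNA counts do not measure that protein. Summed neural progenitor markers (12 of 13 listed genes in the table) lay between 472 to 787 CPM in *Mbd3* KO, MBD2a and MBD2t and between 1773 to 3920.2 CPM in the other lines, so the defining genes of the labelled cell type were lower, without overlap, in the first 3 lines. Library s18 of MBD2adelGR stood apart, with 501 genes at least 4-fold above both other libraries of its line, and s03 of WT (251) and s15 of MBD2a (197) followed. In the other direction, s04 of *Mbd3* KO had 495 genes at least 4-fold below both other libraries of its line. Next were s19 of MBD2aR181C (228) and s01 of WT (144). Counts of called genes that s18 or s15 moves by more than 1.5 times are given with and without that library. For s03 this is done for some of the lists only. In bulk RNA, fewer cells of a type and less RNA per cell cannot be told apart.

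**Figure D1:**
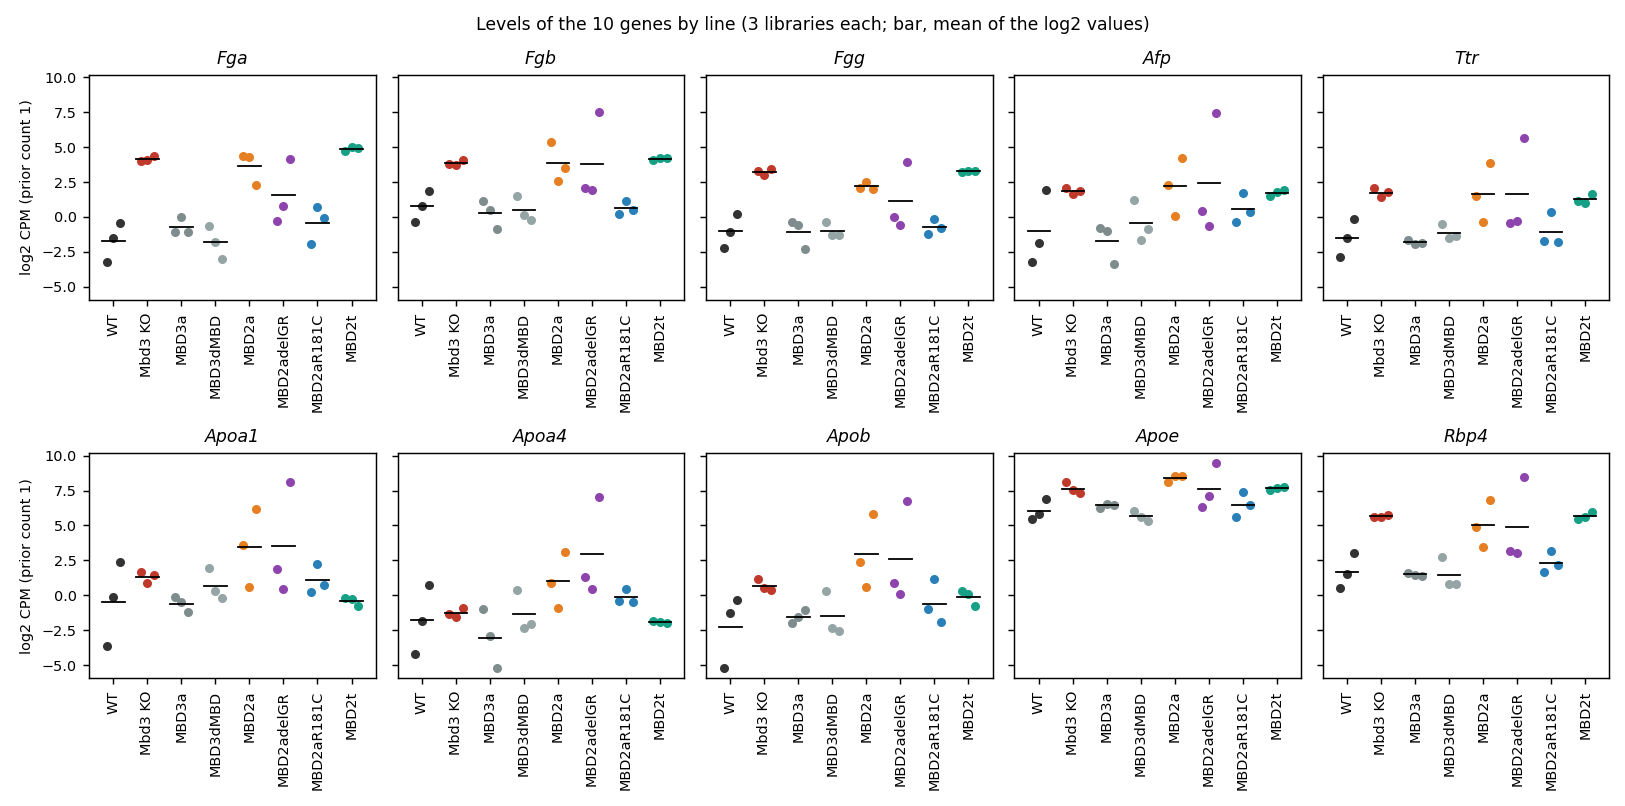
Level of each of the 10 genes in the 24 libraries, as log2 CPM with a prior count of 1, by line; each point is a library and each bar the mean of 3. *Fgg*, *Rbp4* and *Apoe* lie higher in all *Mbd3* KO and MBD2t libraries than in WT, and s18 is at the top of MBD2adelGR for every gene.

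The fibrinogen chains were high in *Mbd3* KO and MBD2t and low in WT, MBD3a, MBD3dMBD and MBD2aR181C. *Fga* (α chain) had 0.0805, 0.330 and 0.730 CPM in WT and 16.04, 16.9 and 20.9 CPM in *Mbd3* KO. It had 26.3, 31.9 and 30.7 CPM in MBD2t and 20.7, 19.9 and 4.97 CPM in MBD2a. Every library of these 3 lines was above the highest WT library. In MBD3a it had 0.456, 0.957 and 0.451, in MBD3dMBD 0.611, 0.259 and 0.0973 and in MBD2aR181C 0.234, 1.64 and 0.926 CPM. MBD2adelGR split, with 0.798, 1.70 and 17.9 CPM, the last of them s18. The log2 fold changes against WT were 5.51 in *Mbd3* KO, 6.24 in MBD2t and 5.26 in MBD2a, as a description. Of the log2 variation in *Fga* over 24 libraries, 86.3% lay between lines, a share that holds the choice of *Fga* by its rise.

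*Fgb* (β chain) had 0.751, 1.71 and 3.58 CPM in WT. It had 13.6, 13.01 and 16.6 CPM in *Mbd3* KO and 16.7, 18.6 and 18.2 in MBD2t, both above every WT library. The MBD2a libraries had 42.1, 5.92 and 11.6 CPM and so ran from above WT but below *Mbd3* KO to above *Mbd3* KO. In MBD2adelGR the values were 4.15, 3.75 and 182 CPM, and s18 was the highest of all 24 libraries. The 9 libraries of MBD3a, MBD3dMBD and MBD2aR181C had 0.521 to 2.75 CPM and overlapped WT. The log2 fold changes against WT were 2.82 in *Mbd3* KO and 3.13 in MBD2t.

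*Fgg* (γ chain), the fibrinogen gene that was not picked for its rise, was the member with the largest called change in *Mbd3* KO. It had 0.188, 0.440 and 1.14 CPM in WT, 9.78, 7.90 and 10.8 CPM in *Mbd3* KO and 9.15, 9.78 and 9.87 CPM in MBD2t. Both lines lay above all WT libraries. It rose by 3.96 ± 0.83 (log2, SE; adjusted p = 4.67e-04) in *Mbd3* KO and by 3.98 ± 0.83 (adjusted p = 4.36e-04) in MBD2t against WT. The MBD2a libraries had 4.12, 5.66 and 4.08 CPM, below each *Mbd3* KO library and above each WT library, a rise of 2.92 ± 0.86 over WT (adjusted p = 0.00781). The difference between MBD2a and *Mbd3* KO was -1.04 ± 0.65 and did not pass (adjusted p = 0.372). In MBD3a *Fgg* had 0.750, 0.649 and 0.174 CPM, in MBD3dMBD 0.764, 0.374 and 0.389 and in MBD2aR181C 0.403, 0.858 and 0.556 CPM, none above the highest WT library. Against *Mbd3* KO it fell in each of these, by 4.15 ± 0.89, 4.28 ± 0.88 and 3.99 ± 0.83 in log2 units (adjusted p = 6.14e-04, 3.63e-04 and 4.79e-04). By mean level the order was MBD2t (9.60 ± 0.391 CPM (SD, n = 3)), *Mbd3* KO (9.48 ± 1.45 CPM (SD, n = 3)), MBD2adelGR (5.63 ± 8.34 CPM (SD, n = 3)), MBD2a (4.62 ± 0.901 CPM (SD, n = 3)), then the other 4 lines at 0.509 to 0.606 CPM. MBD2t and *Mbd3* KO differed by 0.02 ± 0.61 (adjusted p = 1), and the place of MBD2adelGR rests on s18, whose 15.3 CPM stood over 0.983 and 0.655 in the other libraries of the line.

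The ratio of the chains is given as a description, since *Fga* and *Fgb* were chosen by their rises and a ratio to *Fga* holds that choice. Per kilobase of exon, *Fgb* was 8.74 to 16.7 times *Fga* in WT, 1.37 to 1.51 times in *Mbd3* KO and 1.04 to 1.13 times in MBD2t. As a share of the 3 chains together, *Fgb* made up 72.4 to 78.8% in WT, 44.2 to 44.7% in *Mbd3* KO and 41.7 to 42.7% in MBD2t. In MBD3a the ratio was 2.06 to 8.67, in MBD3dMBD 7.53 to 15.6 and in MBD2aR181C 2.40 to 8.43, so libraries with little fibrinogen RNA did not all have the WT ratio. The MBD2a libraries gave 3 different mixtures, with *Fgb* over *Fga* at 3.63 in s13, 0.531 in s14 and 4.17 in s15. In s18 the ratio was 18.04, and *Fgb* made up 88.8% of the chains, the highest share of all libraries. *Fgg* over *Fga* was 1.99 to 3.48 in WT, 0.697 to 0.910 in *Mbd3* KO and 0.457 to 0.519 in MBD2t. The ratios of WT rest on few reads, with 3 counts of *Fga* in s01, 12 in s02 and 30 in s03.

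**Figure D2:**
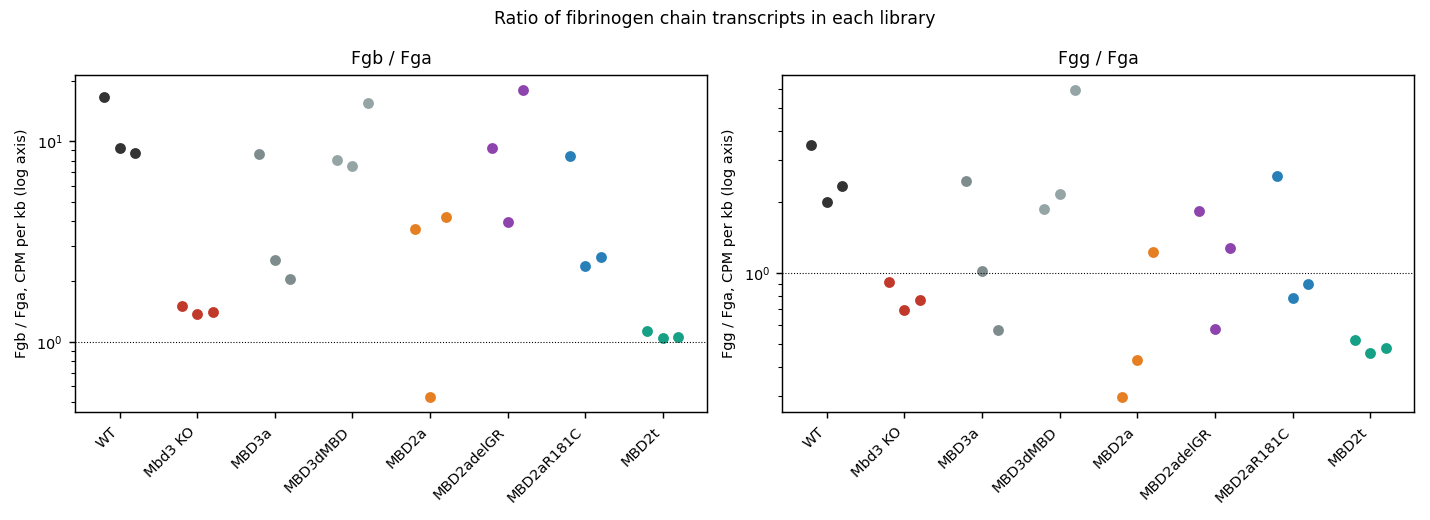
Ratio of *Fgb* to *Fga* (left) and of *Fgg* to *Fga* (right) in each library, from CPM per kilobase of exon on a log axis; the dotted line marks equal levels. For *Fgb* over *Fga*, MBD2t lies at 1.04 to 1.13 and *Mbd3* KO at 1.37 to 1.51, while the WT libraries lie at 8.74 to 16.7.

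*Rbp4*, which carries retinol from liver and yolk sac through the blood, was called in the same lines as *Fgg*. Its levels were 1.40, 2.78 and 8.11 CPM in WT, 48.3, 49.8 and 52.8 CPM in *Mbd3* KO and 43.5, 49.2 and 61.7 CPM in MBD2t. It rose by 3.60 ± 1.14 (log2, SE; adjusted p = 0.0109) and 3.64 ± 1.14 (adjusted p = 0.0104), with every library of both lines above WT. In MBD2a it had 29.5, 11.05 and 114 CPM, a rise over WT of 3.64 ± 1.15 (adjusted p = 0.0114) that without s15 was 2.31 and did not pass (adjusted p = 0.0981). MBD3a had 3.07, 2.77 and 2.64 CPM and the 3 MBD2aR181C libraries 3.14, 8.80 and 4.37 CPM, with falls of 4.15 ± 1.21 and 3.22 ± 1.12 against *Mbd3* KO (adjusted p = 0.00672 and 0.0195). MBD3dMBD had 6.65, 1.72 and 1.73 CPM and fell by 3.97 ± 1.19 (adjusted p = 0.00715). In MBD2adelGR s18 reached 362 CPM beside 9.12 and 7.98.

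*Apoe*, the apolipoprotein of remnant particles and of brain lipid transport, was the most abundant member in every library per kilobase. It had 44.3, 57.7 and 118 CPM in WT, 274, 183 and 156 CPM in *Mbd3* KO and 188, 209 and 211 CPM in MBD2t. Every library of both lines was above WT, and the rises were 1.48 ± 0.57 (adjusted p = 0.0318) and 1.46 ± 0.57 (adjusted p = 0.0334) in log2 units. MBD2a had the highest level outside s18, 280.3, 365 and 371 CPM, 2.20 ± 0.58 above WT (adjusted p = 0.00364). Without s15 this was 2.15 and still passed (adjusted p = 0.00992). MBD3dMBD had 66.8, 48.4 and 40.6 CPM and fell by 1.98 ± 0.58 against *Mbd3* KO (adjusted p = 0.00612), whereas the difference of MBD3a, with 76.8, 94.3 and 90.2 CPM, was -1.23 ± 0.57 and did not pass (adjusted p = 0.0703).

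*Afp*, the main plasma protein of the fetus, was not called in *Mbd3* KO, and its WT libraries spread widely. WT had 0.0805, 0.248 and 3.87 CPM, with s03 last, and *Mbd3* KO had 4.17, 3.16 and 3.68 CPM. The difference was 1.33 ± 1.54 (adjusted p = 0.470), and 4.46 without s03 (adjusted p = 0.149). MBD2t had 2.74, 3.50 and 3.82, MBD2a 4.81, 1.001 and 18.8 and MBD2adelGR 1.32, 0.625 and 176 CPM. The highest values, 176 CPM in s18 and 18.8 CPM in s15, were single libraries of their lines. MBD3a, MBD3dMBD and MBD2aR181C ran from 0.0694 to 3.22 CPM.

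*Ttr*, which carries thyroxine and the retinol binding protein, was higher in every library of *Mbd3* KO and MBD2t than in WT without passing the test. It had 0.107, 0.330 and 0.876 CPM in WT, 4.14, 2.63 and 3.36 CPM in *Mbd3* KO and 2.16, 2.01 and 3.11 CPM in MBD2t. The differences of 2.89 ± 1.48 (adjusted p = 0.0984) and 2.43 ± 1.51 (adjusted p = 0.173) had wide errors. Its highest libraries were s18 with 50.5 and s15 with 14.6 CPM. *Ttr* overlaps *Gm16090* on the other strand, and the strand setting of the counting is not given in the sources used here, so reads of the 2 genes cannot be told apart.

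*Apoa1*, the main protein of high density lipoprotein, did not pass in *Mbd3* KO or MBD2t. It had 0.0537, 0.908 and 5.11 CPM in WT, 3.17, 1.84 and 2.67 CPM in *Mbd3* KO and 0.832, 0.822 and 0.546 CPM in MBD2t, and the groups overlapped. The differences from WT were 0.29 ± 1.60 (adjusted p = 0.887) and -1.51 ± 1.86 (adjusted p = 0.500). In MBD2a it had 12.2, 1.47 and 72.5 CPM and in MBD2adelGR 3.65, 1.37 and 280.4 CPM, so a single library in each line carried most of the reads. The remaining lines had 0.416 to 4.67 CPM.

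*Apoa4*, an intestinal and yolk sac apolipoprotein that begins 10229 bp downstream of *Apoa1*, and *Apob*, the scaffold of very low density lipoprotein, were both highest in s18 and s15. *Apoa4* had 0.0268, 0.248 and 1.66 CPM in WT and 0 to 0.502 CPM in the 9 libraries of *Mbd3* KO, MBD3a and MBD2t, and reached 129 CPM in s18 and 8.56 CPM in s15. It overlaps *Gm10680* on the other strand. *Apob* had 0, 0.385 and 0.755 CPM in WT, 2.23, 1.39 and 1.24 in *Mbd3* KO, 5.15, 1.502 and 56.1 in MBD2a and 1.81, 1.04 and 108 in MBD2adelGR. For *Apob*, *Mbd3* KO was above WT in every library, by 2.03 ± 2.00 (adjusted p = 0.393). The WT values rest on 0, 14 and 31 counts.

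Per comparison, the 8 tested members divided as follows. In *Mbd3* KO against WT, 3 rose (*Fgg*, *Rbp4*, *Apoe*), none fell and 5 were not called, where 19.6% of all genes were called higher and 33.8% called in either direction. The libraries of the 2 lines did not overlap in 5 of the 8 (also *Ttr* and *Apob*), all higher in *Mbd3* KO, as in 31.1% of all genes. In MBD2t against WT the same 3 genes rose, beside 18.2% of all genes called higher and 33.4% in either direction. There 4 of the 8 (also *Ttr*) were higher in every library, as were 34.6% of all genes. The median log2 fold change of the 8 was 1.76 in *Mbd3* KO and 1.35 in MBD2t, against −0.03 and −0.04 over all genes. With only the 6 libraries of the lines compared, 5 of 8 were called in *Mbd3* KO, a refit for which the share of all genes was not computed. Nothing particular to the group can be read from these shares. The 2 comparisons share the WT libraries, as all 7 comparisons with WT do.

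In MBD2a against WT, 6 of 8 rose (all but *Afp* and *Apoa4*), beside 16.9% of all genes called higher and 30.6% in either direction, with a median of 3.28. Without s15 only *Fgg* (3.02, adjusted p = 0.0138) and *Apoe* of the 8 stayed called, while *Ttr*, *Apoa1*, *Apob* and *Rbp4* did not pass. In that refit 26% of all genes were called in either direction. In MBD2adelGR against WT all 8 were called higher, beside 2.69% of all genes called higher and 5.16% in either direction, yet libraries of the 2 lines did not overlap in 1 member only (*Apob*), as in 9.32% of all genes in that direction. Without s18, 0 of 8 were called in edgeR (0.722% of all genes were called), 0 had an unadjusted p under 0.05, and the log2 fold changes ran from -0.58 (*Afp*) to 1.86 (*Apob*). Leaving out s01 or s02 of WT in place of s18 also left 0 of 8 called, with 1.08% and 1.5% of all genes called. In MBD3a, MBD3dMBD and MBD2aR181C against WT 0 of 8 were called in edgeR, 0 had an unadjusted p under 0.05 and 0 were called in DESeq2, and 0%, 0.0181% and 0.0181% of all genes were called. The standard errors of *Apob*, *Apoa4*, *Afp*, *Ttr* and *Apoa1* in these lines were 1.61 to 2.82 log2 units, so even changes larger than 1 such error could go uncalled.

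**Figure D3:**
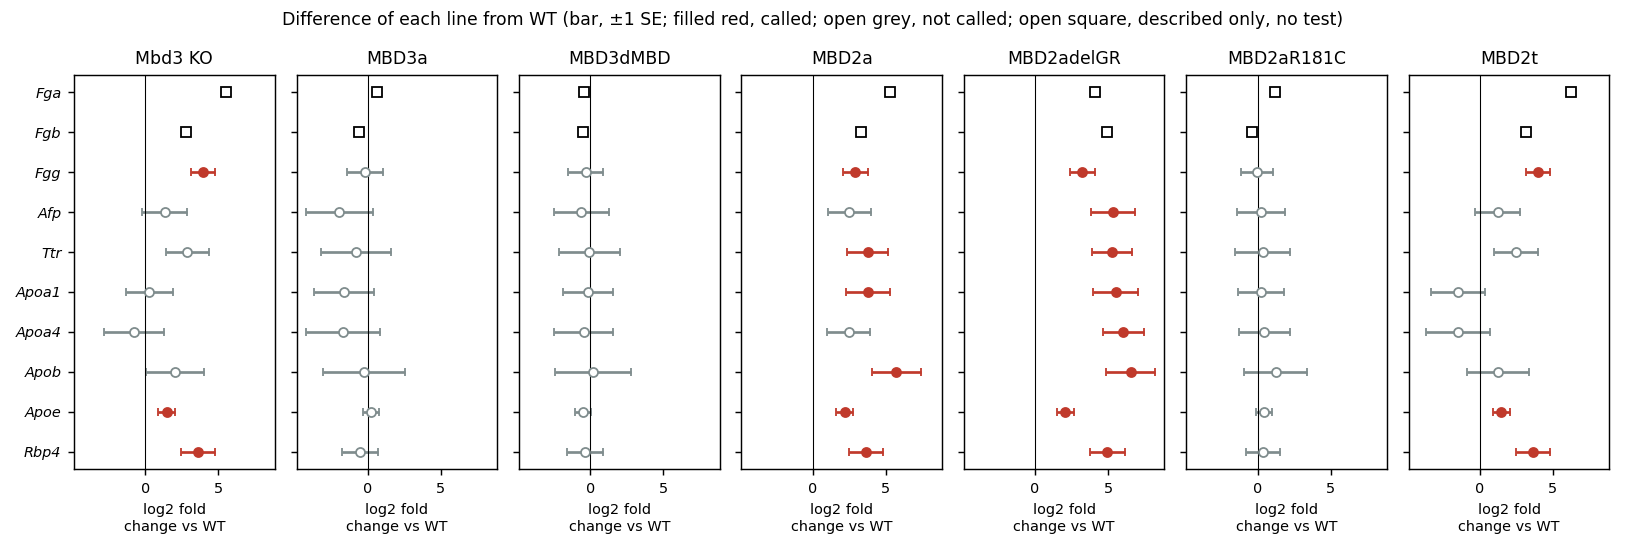
Log2 fold change of each gene against WT in the 7 other lines; bars are ±1 SE, filled red points were called, open grey points were not, and open squares (*Fga*, *Fgb*) carry no test. *Fgg*, *Apoe* and *Rbp4* were called in *Mbd3* KO and MBD2t, and all 8 tested genes in MBD2adelGR, a result that rests on s18.

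Against *Mbd3* KO, the question was whether a construct lowered the genes. MBD3a had 2 of 8 called lower (*Fgg*, *Rbp4*; 18.9% of all genes were called lower and 32.4% in either direction), MBD3dMBD 3 of 8 (also *Apoe*; 20.9% and 35.9%) and MBD2aR181C 2 of 8 (*Fgg*, *Rbp4*; 18.1% and 31.1%). DESeq2 called 5 of 8 for MBD3a, and fits on the 6 libraries of the lines compared called 7 for MBD3a and 6 for MBD3dMBD. The share of all genes called in these refits was not computed, so these counts have no baseline. Without s19 or without s21, 1 of 8 was called for MBD2aR181C, beside 26.6% and 28.1% of all genes in either direction. With MBD3a, 7 of 8 members were below *Mbd3* KO in every library, where 32.4% of all genes were. With MBD3dMBD 6 of 8 were (all genes 33.7%) and with MBD2aR181C 3 of 8 (28.8%), and *Apoa4* was higher in every MBD2aR181C library (34.5% of all genes). MBD2t against *Mbd3* KO gave 0 calls of 8 in edgeR, 0 at an unadjusted p under 0.05 and 0 in DESeq2 (0.0241% of all genes were called). MBD2a against *Mbd3* KO gave 0 of 8 in edgeR, where 5.25% of all genes were called, and 0 in DESeq2. At an unadjusted p under 0.05 there were 2 of 8, and the share of all genes at that threshold was not computed. MBD2adelGR against *Mbd3* KO had 4 called higher (*Afp*, *Apoa1*, *Apoa4*, *Apob*; 9.86% of all genes, 25.2% in either direction). Without s18 these 4 were not called and 2 others were called lower, *Fgg* at -3.53 (adjusted p = 3.17e-06) and *Rbp4* at -2.55 (adjusted p = 0.0107). In that refit 28.5% of all genes were called in either direction.

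Between MBD2 variants, MBD2a was compared with its versions lacking the GR repeat or with a mutated MBD. These lines also differed in *Mbd2* RNA, with 67.0 to 87.2 CPM in MBD2a, 280.3 to 700.1 in MBD2adelGR and 253 to 325 in MBD2aR181C. The part of that difference in the members' levels was not tested. Against MBD2aR181C, 6 of 8 were higher in MBD2a (*Fgg*, *Ttr*, *Apoa1*, *Apob*, *Apoe*, *Rbp4*; 15.1% of all genes were called higher and 27.3% in either direction). In 3 of the 8 every MBD2a library was higher, as in 25.6% of all genes. *Fgg* differed by 2.95 ± 0.86 (adjusted p = 0.00816) and *Apoe* by 1.76 ± 0.57 (adjusted p = 0.0161). Without s15 only these 2 of the 8 stayed called (3.04 and 1.69, adjusted p = 0.0152 and 0.0388), and without s19 or s21 of MBD2aR181C 1 of 8 was called. Of all genes, 22% were called in either direction without s15, 21% without s19 and 23.4% without s21. Against MBD2adelGR, 1 of 8 was called, *Apoa4*, lower in MBD2a by 3.58 ± 1.15 (adjusted p = 0.0213; 8.02% of all genes were called lower and 18.6% in either direction). Without s13 or without s14 this call was lost, and without s16 or without s17 *Afp* was called lower as well. In these refits 13.2 to 19.1% of all genes were called in either direction. Without s18, 7 of 8 were called higher in MBD2a, *Fgg* by 2.49 (adjusted p = 2.82e-04), *Apoe* by 1.63 and *Rbp4* by 2.59, with 22.9% of all genes called in either direction. MBD2t against MBD2a gave 0 of 8 in edgeR, where 4% of all genes were called. It gave 3 at an unadjusted p under 0.05 and 2 in DESeq2, and the shares of all genes by these 2 measures were not computed. All 3 libraries of MBD2t were below those of MBD2a in 4 of the 8 (17.1% of all genes), among them *Apoa1* (-5.30 ± 1.68, adjusted p = 0.0670) and *Apob* (-4.51 ± 1.46, adjusted p = 0.0731).

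Within several lines, single libraries were high or low in all members. In s18, s03, s10 of MBD3dMBD and s20 of MBD2aR181C all 10 genes were above both other libraries of the line, and in s01 of WT all 10 were below both. The median deviation of the 10 from the mean of the other 2 libraries was 5.77 log2 units in s18, 2.04 in s03, 1.84 in s10 and 1.52 in s20. Of all tested genes, 41.6% were above both others in s18, 44.7% in s03, 35.4% in s10 and 37.6% in s20. In s15 of MBD2a 7 were above both, while *Fga* and *Fgg* were the lowest of their line. In *Mbd3* KO the deviations ran from -0.66 to 0.75 log2 units, and in MBD2t from -0.998 to 0.66.

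**Figure D4:**
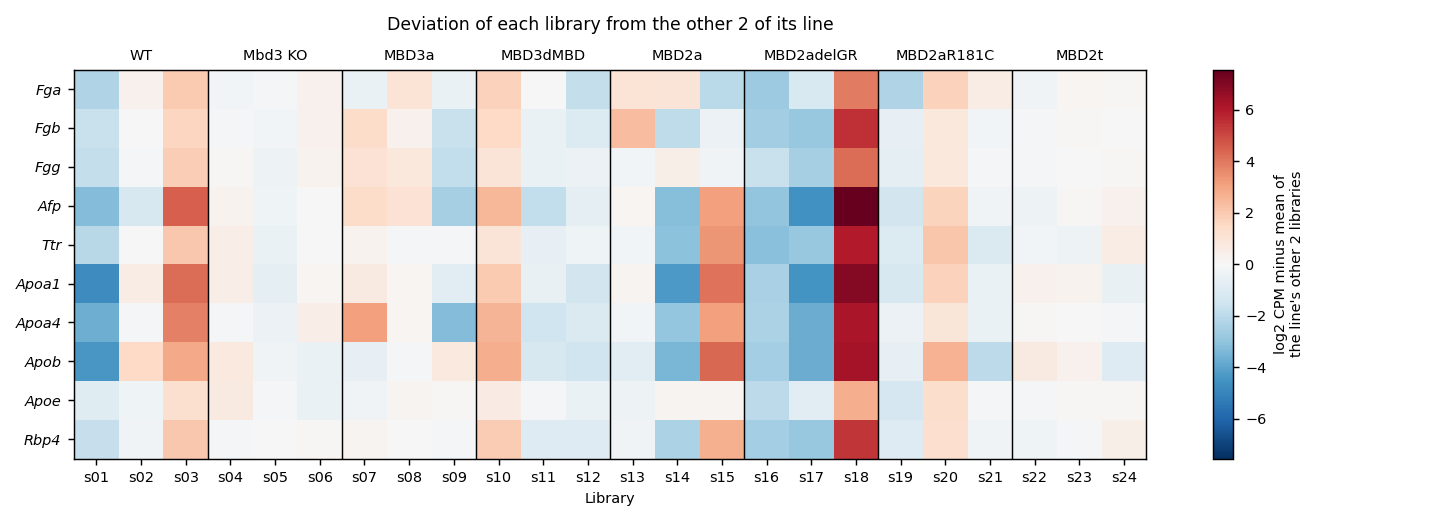
Log2 CPM of each gene in each library minus the mean of the other 2 libraries of its line; red is above, blue below. All 10 genes are red in s03, s10, s18 and s20, and in s15 the lipoprotein genes, *Afp*, *Ttr* and *Rbp4* are red while *Fga* is blue.

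The share of log2 variation that lay between lines differed from gene to gene. It was 86.3% for *Fga*, 80.9% for *Fgg*, 71.3% for *Rbp4*, 69.1% for *Fgb* and 68.8% for *Apoe*. For the others it was 56.8% (*Ttr*), 55.6% (*Apoa4*), 54.4% (*Apob*), 44.1% (*Apoa1*) and 42.3% (*Afp*). *Fga* and *Fgb* were picked for their rises in these data, so their shares hold that choice and are a description only. The share over all genes was not computed, so none of these shares has a baseline. Without s18 *Fga*, *Fgg*, *Rbp4* and *Fgb* had 84.9 to 92.1%, *Apoe* had 83.0% and *Ttr* had 73.0%, while the remaining 4 had 48.1 to 59.1%.

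Correlations over the 24 libraries, which share lines and single libraries, are a description only. *Fga* and *Fgg* had r = 0.95, *Ttr* and *Rbp4* 0.96, and *Apoa1* with *Apob* and *Apoa4* 0.93 and 0.92. *Fga* had 0.38 with *Apoa1* and 0.29 with *Apoa4*. Taken within lines, the last 2 were 0.60 and 0.58.

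The tested genes outside the group whose log2 CPM was most like that of each member (Pearson r over 24 libraries) were listed, 3 a member. For *Fga* they were *Lsr*, *Pawr* and *Gsr* (r = 0.97 for each), for *Fgg* *Tnk1*, *Gipc2* and *Vamp8* (r = 0.96 to 0.97) and for *Fgb* *Klf4*, *Foxa2* and *Slc34a2* (r = 0.95 to 0.96), *Foxa2* being an endodermal transcription factor. *Hnf4a*, the transcription factor that hepatocytes and visceral endoderm share, was the gene most like *Ttr*, followed by *Trpm6* and *Crtap* (r = 0.97 for each), and was among the 3 most like *Apob* with *Ctsh* and *Ugt2b34* (r = 0.93 to 0.94). *Muc13*, an epithelial mucin, led for *Apoa1* (r = 0.95, then *Serpina10* and *Apol7a*) and for *Apoa4* (r = 0.94, then *Mybpc3* and *Lgals2*). For *Afp* they were *S100g*, *Car4* and *Cldn2*, for *Apoe* *Uap1l1*, *Setd6* and *Slc39a4* and for *Rbp4* *Serpinb6c*, *Rbbp7* and *Trpm6* (r = 0.94 to 0.98 over the 3 members).

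Marker lists of other cell types were measured beside the members. Summed visceral endoderm markers (12 of 14 listed genes in the table) were 89.2 to 111 CPM in WT, 247 to 331 in *Mbd3* KO, 256 to 263 in MBD2t and 210.0 to 622 in MBD2a. In MBD2adelGR they were 158 and 159 in s16 and s17 and 1095 in s18. *Cubn*, the endocytic receptor cubilin, had 244 CPM in s18, 126 in s15 and 3.57 to 8.09 in *Mbd3* KO, and *Hnf4a* had 24.5 CPM in s18, 11.1 in s15 and 2.01 to 2.86 in *Mbd3* KO. *Cubn* and *Hnf4a* were chosen for mention here after their values were seen. Of the 11 tested genes of the visceral endoderm list, 5 rose and 0 fell in *Mbd3* KO, 8 and 0 in MBD2a and 6 and 1 in MBD2t against WT. The 3 largest called changes in *Mbd3* KO were *Slc13a4* (5.32), *Amn* (3.42) and *Vil1* (3.20). In MBD2a without s15, 3 rose, and in MBD2adelGR 7 rose with s18 and 0 without it. Parietal endoderm markers (14 of 14) summed to 28749.7 CPM in s18 and 1146 to 6204 CPM in the other 23 libraries. Their part in the result was not tested.

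Among the other lists, hepatocyte markers (12 of 12, 3 tested) summed to 10.6 to 27.9 CPM over all 24 libraries, most of it from *Arg1* (19.03 of 19.4 CPM in s01, 11.3 of 13.4 in s04 and 24.5 of 25.6 in s18), and *Alb* (albumin) lay between 0 and 0.354 CPM. Of the 3 tested, *Cps1* (2.40) and *Asgr1* (1.24) rose in *Mbd3* KO. Intestinal epithelium markers (9 of 9) summed to 5.10 to 18.5 CPM in WT, 41.6 to 58.2 in *Mbd3* KO and 198 in s18, with *Vil1*, *Cdx1* (3.05) and *Cdx2* (1.90) higher in *Mbd3* KO. Choroid plexus markers (10 of 10) were at 21.7 to 22.1 CPM in WT, 40.5 to 42.8 in *Mbd3* KO and 220.5 in s18, with *Folr1* (2.69), *Kl* (2.59) and *Lmx1a* (1.15) called in *Mbd3* KO. Macrophage markers (10 of 11, 3 tested) summed to 2.47 to 4.15 CPM in WT and 33.7 to 48.2 in *Mbd3* KO, where *Csf1r* (6.05) and *Cd68* (2.67) rose. Most of that sum came from these 2 genes (26.2 and 21.6 of 48.2 CPM in s04). *C1qa*, *C1qb*, *Adgre1*, *Cx3cr1* and *Aif1* lay between 0 and 0.199 CPM in *Mbd3* KO. Pluripotent cell markers (9 of 9) summed to 24.2 to 176 CPM in WT and 329 to 1034 CPM in *Mbd3* KO. There all 9 rose, by most in *Tdgf1* (4.53), *Fgf4* (4.14) and *Zfp42* (3.51). Neural progenitor markers fell, 12 of 12, by most in *Fabp7* (-7.12), *Hes5* (-6.93) and *Neurog2* (-6.91). In parietal endoderm 5 of 14 rose and 1 fell in *Mbd3* KO, with *Nid1* (3.35), *Thbd* (3.32) and *Snai1* (2.07) highest, and without s03 2 rose and 0 fell. *Vil1*, *Tdo2*, *Thbd*, *Plat*, *Stra6*, *Lrp2*, *Hnf4a* and *Alb*, among other genes, stand in more than 1 list. The part of these cell types in the members' levels was not tested.

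**Figure D5:**
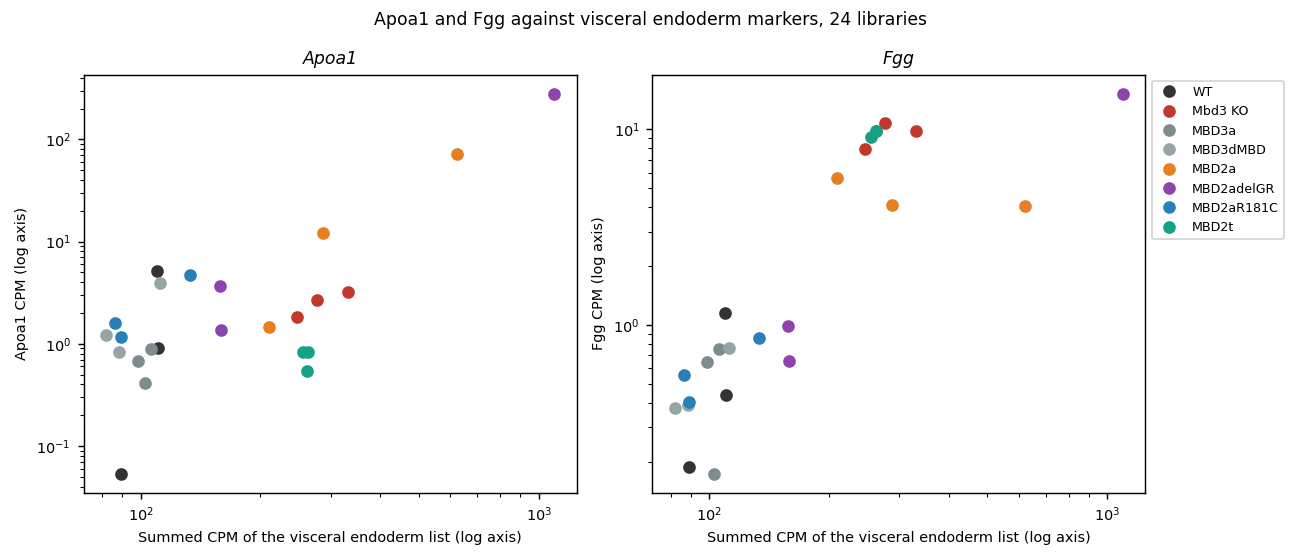
*Apoa1* (left) and *Fgg* (right) in CPM against the summed CPM of the visceral endoderm list, 24 libraries, all axes on a log scale; colours mark the lines. *Apoa1* is highest in s18 and s15, which have the highest sums. *Fgg* is also highest in s18, at 15.3 CPM. It is at 7.90 to 10.8 CPM in *Mbd3* KO and MBD2t, at sums of 247 to 331 CPM, and at 4.08 CPM in s15.

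Other genes of the same pathways were taken from lists, with the counts over the tested genes of each in the comparison with WT. Of 34 other secreted plasma protein genes, 17 rose and 4 fell in *Mbd3* KO (median log2 fold change 1.78, against −0.03 over all genes), 15 and 3 in MBD2t, and 15 and 2 in MBD2a. *Itih4* rose from 0.0433 to 3.19 mean CPM (6.07, adjusted p = 2.68e-07), *Hp* (haptoglobin) from 0.0587 to 2.42 (5.21, adjusted p = 2.71e-08) and *Apoa5* from 0.0173 to 0.523 (4.72, adjusted p = 2.66e-04). In MBD2adelGR 11 rose, and 0 without s18. *Apoa2*, an apolipoprotein of high density lipoprotein, had 31.5 CPM in s18 and at most 3.39 CPM elsewhere, whereas *Hp* had 0 counts in all 3 MBD2adelGR libraries, s18 included. *Apoa2* was chosen for mention after its values were seen.

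Of 20 coagulation and fibrinolysis genes, 11 rose and 1 fell in *Mbd3* KO and in MBD2t, and 8 rose and 1 fell in MBD2a, or 5 and 2 without s15. *Kng1* (kininogen) had 0.0751 mean CPM in WT and 4.64 in *Mbd3* KO (5.81, adjusted p = 8.58e-05). *Procr*, the protein C receptor, had 1.80 and 20.7 (3.52, adjusted p = 7.12e-05). The median log2 fold change was 1.55 in *Mbd3* KO. In MBD2adelGR 6 rose and 2 fell, and 0 of either without s18.

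The acute phase and IL6 pathway list had 17 of 21 genes higher and 1 lower in *Mbd3* KO (median 3.21), 16 and 1 in MBD2a and 14 and 1 in MBD2t. *Lcn2* (lipocalin) went from 0.0932 to 8.51 mean CPM (6.41, adjusted p = 4.17e-08) and *Saa2* (serum amyloid A) from 0.0252 to 2.42 (6.35, adjusted p = 3.71e-11). *Lcn2* was at 3.14 CPM in MBD2t, 0.544 in MBD2a and 0.0277 CPM in s18. In s18, then, *Lcn2*, *Saa2* (0.0277 CPM) and *Hp* were at or near 0 while *Fgb*, *Apoa1*, *Apoa4*, *Apob* and *Apoe* were at their highest of all libraries. The receptor genes *Lifr* and *Il6st* (159 and 167 CPM) and *Lif* (32.7 CPM), of the same list, were also at their highest in s18. These genes of s18 were chosen for mention after their values were seen. In MBD2adelGR 6 of the list rose and 0 fell, with 0 of either without s18 and 3 and 0 without s03. Without s15 the MBD2a counts were 9 higher and 1 lower. *Hp* also stands in the plasma protein list.

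Lipoprotein assembly and receptor genes divided, with 6 of 24 higher and 2 lower in *Mbd3* KO (median 0.28) and 5 and 3 in MBD2t. *Scarb1*, the receptor for high density lipoprotein, rose by 2.23 (adjusted p = 9.72e-07), while *Vldlr*, the very low density lipoprotein receptor, fell by 2.29 on the log2 scale (adjusted p = 7.71e-05). *Mttp*, which loads lipid onto the *Apob* product, had 150.3 CPM in s18, 40.5 in s15 and 10.8 to 19.4 in the other 22 libraries, and was chosen after its values were seen. Of 14 retinol and thyroid hormone partners, 3 rose and 5 fell in *Mbd3* KO (median -0.18). *Dio3*, which inactivates thyroid hormone, and *Aldh1a2*, which makes retinoic acid, rose by 3.66 and 3.13 (adjusted p = 2.62e-06 and 0.00295). The rise of *Aldh1a2* rests on s05 and s06, with 116 and 128 CPM. Its 6.43 CPM in s04 lay within the WT range of 5.92 to 11.4 CPM. The retinoic acid receptor gene *Rarb* fell by 2.20 on the log2 scale (adjusted p = 4.55e-06).

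Of 26 hepatic and endodermal transcription factor genes, 6 rose and 6 fell in *Mbd3* KO (median 0.12), 12 and 7 in MBD2a and 8 and 7 in MBD2t. The largest changes called in *Mbd3* KO were *Eomes* (4.22, adjusted p = 4.64e-05), *Prox1* (-3.93, adjusted p = 1.78e-06) and *Nr1h4* (-3.74, adjusted p = 1.41e-05). *Gata4*, an endodermal factor, was at 291 CPM in s18, 80.6 in s15 and 5.43 to 19.3 in *Mbd3* KO (0.94, adjusted p = 0.400). It was chosen for mention after its values were seen. Without s15, the MBD2a counts in this list were 6 and 7.

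In MBD3a, MBD3dMBD and MBD2aR181C against WT, 0 of the 155 tested genes of these lists and of the neighbours of the members were called in edgeR. At an unadjusted p under 0.05 there were 4, 7 and 12, and DESeq2 called 0, 1 and 0.

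Neighbours of the members were read to see whether whole loci moved. At the fibrinogen locus, *Plrg1* differed by -0.26 (log2, *Mbd3* KO against WT, adjusted p = 0.0301) and *Lrat* by -0.39 (adjusted p = 0.299), neither of them called, and *Rbm46* rose by 1.497 (adjusted p = 3.47e-06). At *Afp*, *Rassf6* rose by 2.28, *Ankrd17* was at 0.35 and not called, and *Alb* and *Afm* were too low to test. At *Apoa1* and *Apoa4*, *Apoa5* rose by 4.72, *Pafah1b2* fell by 1.12 on the log2 scale, and *Bud13* (0.02), *Zpr1* (0.18) and *Sik3* (-0.04) were not called. Around *Apoe*, *Apoc1* (2.72), *Bcam* (2.13) and *Nectin2* (1.501) rose, while *Clptm1* (0.62), *Tomm40* (0.43) and *Apoc2* (1.23) were not called. Near *Rbp4*, *Ffar4* rose by 1.36, and *Cep55* (-0.60), *Plce1* (-0.87) and *Fra10ac1* (-0.21) were not called. Near *Ttr*, *Dsg2* rose by 2.86 and *B4galt6* by 1.34, and near *Apob*, *Ldah* (-0.40) was not called. *Bcam*, *Nectin2*, *Tomm40* and *Dsg2*, like *Vil1*, *Cubn*, *Csf1r*, *Hes5*, *Prox1* and *Muc13* above, overlap other genes on the opposite strand and *Apoc2* overlaps *Apoc4*, so their counts are uncertain. In all, 9 of 23 tested neighbours rose and 1 fell in *Mbd3* KO (median 0.43), 9 and 2 in MBD2t, 6 and 1 in MBD2a, and 1 and 0 in MBD2adelGR, where without s18 there were 0.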

How the data were processed

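Raw counts per gene were used as deposited by the authors for 24 poly(A) RNA-seq libraries. Per the study's methods, reads were trimmed with Trim Galore, aligned with STAR to mm9 and counted with QuasR on GENCODE vM1, and the strand setting of the counting is not given in the sources used here. Library columns were matched to lines by the names in their headers, and no 2 libraries agreed within sampling noise.

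Of 25400 genes, 16582 passed the filter of edgeR (filterByExpr) and were tested. Library sizes were scaled by TMM, 1 mean per line was fitted over all 24 libraries with the quasi-likelihood test of edgeR 4.0.16 in R 4.3.3, and p-values were adjusted by Benjamini-Hochberg over all tested genes in each of 16 comparisons. DESeq2 1.42.0 was an alternative. The scripts were tested on simulated data. CPM per kilobase used the summed exon length of each gene. Totals of 27993858 to 49392806 counts set the counting precision, and floors cover counting error only.

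The 10 members and all lists were chosen with earlier results of these data known. The text names every member, the 3 genes with the largest called change in *Mbd3* KO of each list, all tested neighbours, and the 3 genes most like each member, except that some list genes are not reported here. Errors of fold changes are standard errors of the fit, and those of levels the SD of 3 libraries. Start regions and motif shares are from RefSeq on GRCm38.p6.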

Additional observations from a re-analysis of the deposited data

Results flagged for a closer look

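In all, 7 differences between constructs on the same *Mbd3* KO background passed the test of the difference itself (edgeR quasi-likelihood, Benjamini-Hochberg over all genes). Against MBD2aR181C, MBD2a was higher in *Fgg* by 2.949 (adjusted p = 0.00816), in *Ttr* by 3.402 (0.0416), in *Apoa1* by 3.563 (0.0490), in *Apob* by 4.492 (0.0166), in *Apoe* by 1.755 (0.0161) and in *Rbp4* by 3.259 (0.0209), all on the log2 scale. The libraries did not overlap in 3 of the 8 tested genes, and without s15 *Fgg* and *Apoe* stayed called, beside 22% of all genes. MBD2a also had less *Mbd2* RNA than MBD2aR181C (67.0 to 87.2 against 253 to 325 CPM), and the part of that was not tested. Against MBD2adelGR, the log2 fold change of *Apoa4* in MBD2a was -3.584 ± 1.15 (adjusted p = 0.0213), and without s18 it was higher by 0.97 and did not pass (adjusted p = 0.363).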

How the results depend on the processing

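Counts of called members moved by more than 1.5 times in 9 of 96 refits other than leaving out a library. With only the libraries of the lines compared, the count was 5 in *Mbd3* KO against WT, 0 in MBD2adelGR against WT, 7 in MBD3a, 6 in MBD3dMBD and 0 in MBD2adelGR against *Mbd3* KO, 0 in MBD2a against MBD2adelGR and 1 in MBD2t against MBD2a. DESeq2 gave 5 in MBD3a against *Mbd3* KO and 2 in MBD2t against MBD2a. The shares of all genes called in these refits were not computed. The older form of the quasi-likelihood fit, added after seeing the data, moved no count by that much, nor did RLE scaling, no filter or no fold change threshold. The cause was not tested.

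Leaving out 1 library at a time gave 2 to 6 called in MBD2a, 0 to 8 in MBD2adelGR and 2 to 3 in *Mbd3* KO and MBD2t against WT. Of all genes, 26 to 32.4% were called there in MBD2a, 0.722 to 11.4% in MBD2adelGR, 30.5 to 34.8% in *Mbd3* KO and 30.2 to 34.7% in MBD2t. Against *Mbd3* KO it gave 2 to 5 in MBD2adelGR (21.6 to 28.5% of all genes) and 1 to 3 in MBD2aR181C (26.6 to 34.6%). MBD2a gave 0 to 7 against MBD2adelGR (13.2 to 22.9% of all genes) and 1 to 6 against MBD2aR181C (21 to 31.3%). MBD2t gave 0 to 1 against MBD2a (2.34 to 6.04%). Without s18 a direction turned in 5 called values, to -0.58 for *Afp* in MBD2adelGR against WT, to -1.91 for *Afp*, -0.0144 for *Apoa1* and -0.17 for *Apob* in MBD2adelGR against *Mbd3* KO, and to 0.97 for *Apoa4* in MBD2a against MBD2adelGR. Over all libraries left out in turn, these 5 values reached 8.48 for *Afp* against WT, 4.53 (*Afp*), 5.74 (*Apoa1*) and 5.02 (*Apob*) against *Mbd3* KO, and -5.21 for *Apoa4*. Of the called single genes over all refits, 333 kept direction and call and 80 lost the call.

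No paired analysis was possible because the deposited columns carry library numbers but none of the replicate numbers of the labels. The WT libraries spread widely in *Apoa1*, *Apob*, *Apoa4* and *Afp*, whose fold changes against WT have wide errors, as do those of *Ttr*.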
